A study of Mus musculus with 2 samples.

Results

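The 32 genes described here are the sensors, transcription factors, disulfide isomerases, chaperones and degradation factors that make up the unfolded protein response and the folding machinery of the endoplasmic reticulum (ER). They were taken from a named list, and each symbol was matched to its gene identifier in GENCODE M21, among 55536 annotated gene entries of which 22015 are nuclear protein-coding genes. The rule that defines the list uses no measured value, though the list was drawn up with earlier results of these data known. All 32 symbols matched, to 33 entries, because Ddit3 has a second, nested entry with 0 counts in both libraries. The study sequenced total RNA of the whole adrenal gland from 2 adult male B6CASTF1/J mice, F1 hybrids of the strains C57BL/6J and CAST/EiJ, aged 8 to 10 months. The labels name 1 group, with no treatment, time course or altered gene. Replicate 1 is animal 2 and replicate 2 is animal 4 of the submitters' numbering, so the spread between libraries includes the spread between animals. Only levels within the glands and differences between the 2 animals could be described.

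The ER folds and modifies proteins that are secreted or placed in membranes, and unfolded protein in its lumen activates 3 kinds of sensor in its membrane. IRE1, encoded by Ern1, cuts Xbp1 mRNA so that an active transcription factor is made. PERK, encoded by Eif2ak3, phosphorylates eIF2, which slows translation in general and favours that of ATF4, and ATF6 is cut by Golgi proteases to release a transcription factor. Their targets include lumenal chaperones, oxidoreductases that form disulfide bonds, and the ER-associated degradation (ERAD) machinery that exports misfolded proteins to the proteasome. Steroid-making cells of the adrenal cortex are rich in smooth ER, which holds steroid-converting enzymes of the cytochrome P450 family, and chromaffin cells of the medulla export peptides and granule proteins through the rough ER.

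The depth was 29994901 expected counts (annotated genes) for replicate 1 and 33987434 for replicate 2, and 14544 and 14731 annotated genes reached 1 TPM (the library-scaled transcript level, which takes account of transcript length). Nuclear protein-coding genes took 36.6% and 38.2% of all TPM. Markers of the adrenal cortex and of chromaffin cells were high in both libraries, with summed levels of 22911.6 and 18708.1 TPM for 8 cortex genes and of 3886.56 and 2848.41 TPM for 8 chromaffin genes. Summed adipocyte markers stood at 243.8 TPM in replicate 1 and 2219.04 TPM in replicate 2.

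The folding and stress genes were broadly expressed in the gland. At 1 TPM or more in both libraries stood 30 of the 32, where 56.3% of all nuclear protein-coding genes did. The exceptions, the pseudokinase gene Trib3 and the degradation gene Derl3, each lay just under that level in 1 library. The median level of the 32 genes was 27.08 TPM in replicate 1 and 28.24 TPM in replicate 2, against 12.55 and 13.68 TPM for the median detected nuclear coding gene. Above 100 TPM on average lay 5 genes, Calr, P4hb, Canx, Pdia3 and Manf, all of which encode proteins of the ER lumen or membrane that act in folding or are kept there. A further 22 lay between 10 and 100 TPM and 5 under 10 TPM, and the highest mean was 289 times the lowest. Among nuclear coding genes, 15 of the 32 ranked in the top 10% by mean TPM. Their summed level was 1826.81 TPM in replicate 1 and 1708.34 TPM in replicate 2, or 0.499% and 0.448% of the TPM of nuclear coding genes.

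**Figure D1:**
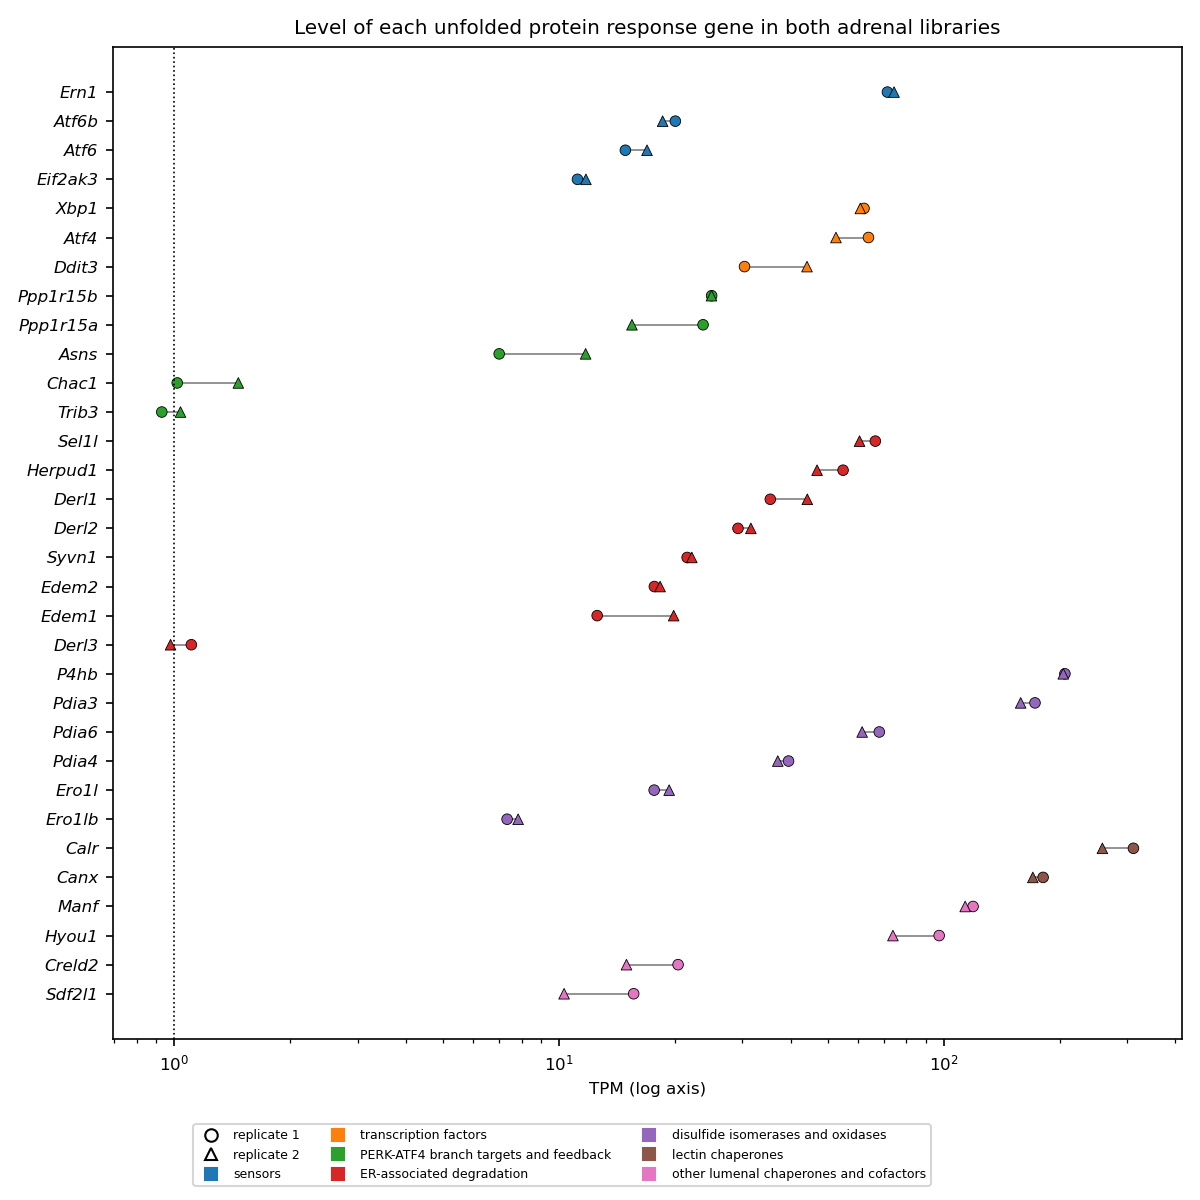
Level of each of the 32 genes in TPM (log axis) in replicate 1 (circles) and replicate 2 (triangles), grouped and coloured by role, with the dotted line at 1 TPM. Calr lies at 311.10 and 258.40 TPM at the top of the range, and Trib3, Derl3 and Chac1 lie close to the dotted line.

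The start regions of several of these genes hold the short motifs through which the response is known to act, and the sequences are shown because they show where genes of different roles share a motif. RefSeq windows on GRCm38.p6, from 250 bases before to 50 bases after the annotated start, were found for 27 of the 32 genes, 2 of them by an older symbol. No window was matched for Atf6, Ppp1r15b, Derl1, Hyou1 and Manf. Both strands were searched. The ER stress response element (ERSE), bound by ATF6 with the factor NF-Y, was searched as CCAAT, a gap of 9 bases and CCACG. It was present in 7 of the 27 genes (25.9%) and in 39 of all 32817 windows (0.119%). Only exact matches to the stated letters were counted. Because the genes were listed for their part in the response, the contrast with all windows is a description and not a test. The matches, with 10 bases on each side and the motif in capitals, read 5′ to 3′ on the gene's strand:
Syvn1: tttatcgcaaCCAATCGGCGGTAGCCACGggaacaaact
Pdia6: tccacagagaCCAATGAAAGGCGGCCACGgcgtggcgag
Canx: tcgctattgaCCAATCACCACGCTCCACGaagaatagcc
Calr: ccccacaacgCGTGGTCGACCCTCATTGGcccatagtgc
Creld2: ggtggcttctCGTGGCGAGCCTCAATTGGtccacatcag
Derl3: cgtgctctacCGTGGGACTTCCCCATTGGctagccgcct
Ero1lb: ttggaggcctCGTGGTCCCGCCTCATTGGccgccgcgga

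In Syvn1, Pdia6 and Canx the element runs with the gene, and in Calr, Creld2, Derl3 and Ero1lb it runs against it, so that it reads there as CGTGG, the gap and ATTGG. The first base of the match lies 44 bases before the RefSeq start in Syvn1 (chr19:6046532-6046550), 98 in Pdia6 (chr12:17266491-17266509), 145 in Canx (chr11:50325800-50325818), 162 in Calr (chr8:84847075-84847093), 126 in Creld2 (chr15:88819520-88819538), 156 in Derl3 (chr10:75893242-75893260) and 201 in Ero1lb (chr13:12565682-12565700). These genes span nearly the whole range of levels, from Derl3 near 1 TPM to Calr near 285 TPM. A match is a description of the sequence, and binding was not measured. The same element is in the window of Hspa5, which encodes BiP, the ER Hsp70 that holds the sensors inactive, and is shown for comparison:
Hspa5: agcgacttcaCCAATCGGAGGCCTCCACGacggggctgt

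A related element, ERSE-II (ATTGG, a gap of 1 base and CCACG), was present in 1 of the 27 genes, Herpud1, and in 12 of all windows (0.0366%). The composite site of C/EBP and ATF factors, to which ATF4 binds, was searched as TTNCATCA and was present in 4 of the 27 genes (14.8%) and in 1303 of all windows (3.97%). Its matches were in Chac1, Asns, Trib3 and again Herpud1, of which Trib3's lies 14 bases after the start. The core of the XBP1-binding element, TGACGTGG, was in none of the 27 and in 222 of all windows (0.676%). The matches upstream of the start are shown in capitals:
Herpud1 ERSE-II: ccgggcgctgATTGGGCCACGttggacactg
Herpud1 C/EBP-ATF: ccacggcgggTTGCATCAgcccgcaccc
Chac1 C/EBP-ATF: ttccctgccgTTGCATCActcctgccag
Asns C/EBP-ATF: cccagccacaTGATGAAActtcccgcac

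Herpud1 was the 1 gene of the 27 with both kinds of element, 52 bases (ERSE-II, chr8:94386377-94386387) and 112 bases (C/EBP-ATF, chr8:94386317-94386324) before its start. The Asns match lies 23 bases before the start and runs against the gene, and that of Chac1 lies 193 bases before it. The 250 bases upstream of the start of Calr, the highest of the 32 genes, show how the element sits among the rest of the sequence (chr8:84846932-84847181, minus strand), with the ERSE in capitals:
Calr upstream: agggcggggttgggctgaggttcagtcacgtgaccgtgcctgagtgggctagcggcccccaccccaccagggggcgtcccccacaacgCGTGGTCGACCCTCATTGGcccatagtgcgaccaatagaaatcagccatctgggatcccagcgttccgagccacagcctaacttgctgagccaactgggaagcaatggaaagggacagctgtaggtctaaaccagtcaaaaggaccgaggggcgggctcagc

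**Figure D2:**
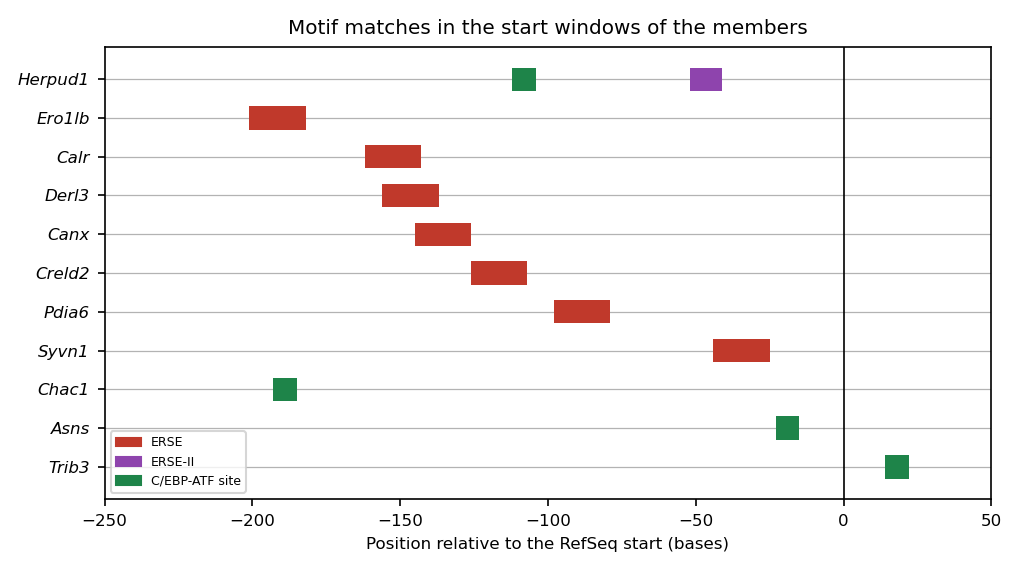
Position of each motif match relative to the RefSeq start (bases; 0 is the start), for the members with a match, coloured by motif. The 7 ERSE matches lie between 201 and 44 bases before the start, and the C/EBP-ATF match of Trib3 lies after it.

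Of the sensors, Ern1 had the highest level. It reached 71.41 TPM in replicate 1 and 74.30 TPM in replicate 2 (72.9 ± 2.04, SD, n = 2), on 11062 and 13062 expected counts (chr11:106394650-106487852, minus strand), and ranked 850th of the 22015 coding genes. In counts scaled to a common library size it was 1.01-fold higher in replicate 2, with a 95% interval of 0.981 to 1.03 that covers counting error only. Eif2ak3, the gene of PERK, stood at 11.18 and 11.76 TPM (11.5 ± 0.410), so that Ern1 exceeded it 6.39-fold in replicate 1 and 6.32-fold in replicate 2. Atf6 stood at 14.89 and 16.95 TPM (15.9 ± 1.46) and its paralog Atf6b at 20.08 and 18.61 TPM (19.3 ± 1.04). Atf6b exceeded Atf6 in both animals, 1.35-fold and 1.10-fold. Between the animals the scaled counts of Atf6b were 1.18-fold higher in replicate 1 (1.09 to 1.27), those of Atf6 1.06-fold higher in replicate 2 (1.01 to 1.11), and the interval of Eif2ak3, 1.04-fold higher in replicate 1, included equality (0.958 to 1.12).

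Among the transcription factors below the sensors, Xbp1 and Atf4 stood at about the same level. Xbp1, the product of which drives chaperone and degradation genes after splicing by IRE1, reached 62.08 and 60.73 TPM (61.4 ± 0.955, n = 2; chr11:5520659-5525893, plus strand). Its scaled counts were 1.11-fold higher in replicate 1 (1.06 to 1.17). TPM and scaled counts are set against different totals and can differ in this way. Atf4, the factor made when eIF2 is phosphorylated, stood at 63.76 and 52.49 TPM (58.1 ± 7.97) and was 1.32-fold higher in replicate 1 (1.25 to 1.39). Ddit3, which encodes CHOP, a factor linked to cell death under lasting stress, differed in the other direction. It stood at 30.37 and 44.14 TPM (37.3 ± 9.74), on 686 and 1063 expected counts, and was 1.32-fold higher in replicate 2 (1.20 to 1.46). The ratio of Ddit3 to Atf4 TPM was 0.476 in replicate 1 and 0.841 in replicate 2. Exons of Ddit3 overlap those of Mars, a tRNA synthetase gene on the opposite strand at 33.62 and 29.64 TPM. The strand setting of the counting is not given in the sources used here, so whether reads of the overlap were kept to the right strand cannot be told. The deposited posterior SD of the count was 0 in both libraries for 30 of the 32 genes, among them Ddit3, Syvn1 and Manf. For these genes the quantification thus shows no reads divided with another gene. In all, 9 of the 32 genes have exons that overlap those of a gene on the opposite strand.

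The stretch of Xbp1 that IRE1 removes was located in exon 4 of the transcript Xbp1-201 (mm10, chr11:5524279-5524304, plus strand). It is shown because its loss changes the reading frame and is the usual readout of this branch. The 26 bases are in capitals, within chr11:5524249-5524334:
Xbp1: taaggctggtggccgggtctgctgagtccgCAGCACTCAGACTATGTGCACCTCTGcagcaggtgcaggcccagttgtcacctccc

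Of the 4 annotated Xbp1 transcripts, 3 hold the stretch whole, and the retained-intron transcript Xbp1-202 does not reach it. The shortest intron in any of them is 300 bases long, so no annotated transcript lacks the 26 bases alone. The level of Xbp1 therefore pools both forms, and the deposited tables do not tell spliced from unspliced mRNA. Xbp1-201 took 77.84% of the gene's TPM in replicate 1 and 78.01% in replicate 2.

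The targets and feedback genes of the PERK and ATF4 branch had the lowest median level of the roles, 7.00 TPM in replicate 1 and 11.74 TPM in replicate 2, and the 3 that could be compared differed between the animals by a median of 0.51 on the log2 scale regardless of sign. Ppp1r15b, the constitutive subunit that directs a phosphatase to eIF2, stood at 24.95 and 24.93 TPM, with scaled counts 1.12-fold higher in replicate 1 (1.07 to 1.17). Its stress-induced counterpart Ppp1r15a (GADD34) stood at 23.70 and 15.49 TPM (19.6 ± 5.81) and was 1.45-fold higher in replicate 1 (1.31 to 1.60). The ratio of Ppp1r15b to Ppp1r15a TPM was 1.05 in replicate 1 and 1.61 in replicate 2. Asns, which encodes asparagine synthetase, differed in the opposite direction. It stood at 7.00 and 11.74 TPM (9.37 ± 3.35), on 369 and 643 expected counts, and was 1.49-fold higher in replicate 2 (1.31 to 1.69), just under the 1.5-fold set for a call, which it passed when scaled by total counts or ERCC spike-ins and in the second quantification. Chac1, a glutathione-degrading enzyme gene, stood at 1.02 and 1.47 TPM on 44 and 68 expected counts, and Trib3, which encodes a pseudokinase that restrains ATF4 signalling, at 0.93 and 1.04 TPM on 45 and 60. Their folds, 1.32 (0.889 to 1.97) and 1.14 (0.760 to 1.71), were not distinguishable from equality at this depth, and both genes were below the minimum of 100 counts set for calls.

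ERAD genes covered a wide range of levels, led by Sel1l in the TPM used here. In the second quantification Herpud1 (50.7 and 45.9 TPM) stood above Sel1l (46.3 and 45.1 TPM), and so did Derl1 in replicate 2 (49.5 TPM). Sel1l, which encodes the adaptor of a ubiquitin ligase complex, stood at 66.43 and 60.44 TPM (63.4 ± 4.24) and was 1.16-fold higher in replicate 1 (1.12 to 1.20). Syvn1, which encodes HRD1, the catalytic subunit of the complex, stood at 21.55 and 22.16 TPM and was 1.12-fold higher in replicate 1 (1.05 to 1.19). Its exons overlap those of Mrpl49 on the opposite strand, at 23.73 and 22.96 TPM, so the limit given for Ddit3 holds for Syvn1 too. Sel1l exceeded Syvn1 3.08-fold and 2.73-fold in TPM. Herpud1, a membrane protein gene that is strongly stress-inducible, stood at 54.77 and 46.88 TPM (50.8 ± 5.58) and was 1.15-fold higher in replicate 1 (1.09 to 1.22).

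Of the derlins, membrane proteins of the export channel, Derl1 and Derl2 had similar levels and Derl3 was far lower. Derl1 stood at 35.44 and 44.22 TPM (39.8 ± 6.21) and Derl2 at 29.21 and 31.55 TPM (30.4 ± 1.65), while Derl3 stood at 1.11 and 0.98 TPM on 23 and 31 expected counts. Derl1 was 1.14-fold higher in replicate 2 (1.09 to 1.20), and the interval of Derl2 included equality (1.03-fold higher in replicate 1, 0.961 to 1.09). Derl3, with a fold of 1.15 and an interval of 0.649 to 2.06, was too shallow for a comparison.

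Edem1 and Edem2 encode mannosidase-like proteins that mark glycoproteins for degradation. Edem2 stood at 17.71 and 18.33 TPM (18.0 ± 0.438), with an interval that included equality (1.01-fold higher in replicate 1, 0.923 to 1.10). Edem1 stood at 12.58 and 19.88 TPM (16.2 ± 5.16) and was 1.26-fold higher in replicate 2 in scaled counts (1.19 to 1.34). Its transcript shares differed as well. The protein-coding Edem1-201 took 87.89% of the gene's TPM in replicate 1 and 75.70% in replicate 2, and the noncoding processed transcript Edem1-203 took 6.81% and 19.87%. TPM depends on which transcripts the reads are given to, and the counts, 1790 and 2650, do not.

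The disulfide isomerases were among the most abundant of the 32 genes. P4hb (protein disulfide isomerase) stood at 206.49 and 204.47 TPM (205 ± 1.43, n = 2), ranked 210th, and was 1.07-fold higher in replicate 1 in scaled counts (1.05 to 1.10). Pdia3, the isomerase that works with calreticulin and calnexin on glycoproteins, stood at 172.66 and 158.49 TPM, ranked 276th, and was 1.14-fold higher in replicate 1 (1.11 to 1.17). Pdia6 stood at 68.02 and 61.39 TPM (64.7 ± 4.69) and was 1.16-fold higher in replicate 1 (1.11 to 1.22), and Pdia4 stood at 39.52 and 37.06 TPM and was 1.18-fold higher there (1.11 to 1.24). The oxidases that recharge these enzymes were far lower. Ero1l stood at 17.69 and 19.35 TPM and Ero1lb at 7.34 and 7.84 TPM, so that Ero1l exceeded Ero1lb 2.41-fold and 2.47-fold and P4hb exceeded Ero1l 11.7-fold and 10.6-fold. Ero1l was 1.12-fold higher in replicate 1 in scaled counts (1.05 to 1.21), and the interval of Ero1lb included equality (1.01-fold higher in replicate 2, 0.905 to 1.13).

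The lectin chaperones, which hold glycoproteins during folding, had the highest median TPM of any role in both libraries, while the isomerases and oxidases had the highest sum (511.72 and 488.6 TPM, against 492.34 and 428.84 TPM). In the second quantification the order of the sums was reversed in replicate 1. Calr, the gene of the soluble calreticulin, stood at 311.10 and 258.40 TPM (285 ± 37.3, n = 2; chr8:84841850-84846934, minus strand), on 17718 and 15669 expected counts, and ranked 132nd of the coding genes. It was 1.33-fold higher in replicate 1 (1.30 to 1.36). Canx, the gene of the membrane-bound calnexin, stood at 181.24 and 170.44 TPM (176 ± 7.64), ranked 260th, and was 1.11-fold higher in replicate 1 (1.09 to 1.14). Calr exceeded Canx 1.72-fold in replicate 1 and 1.52-fold in replicate 2.

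The remaining lumenal proteins were all higher in replicate 1 and included the largest difference. Manf, a secreted factor kept in the ER that acts on BiP, stood at 119.20 and 113.70 TPM (116 ± 3.89), and its scaled counts were 1.12-fold higher in replicate 1 (1.06 to 1.19). Hyou1, the ER Hsp110 that serves BiP as an exchange factor, stood at 97.32 and 73.80 TPM (85.6 ± 16.6) and was 1.27-fold higher there (1.24 to 1.31). Creld2, which encodes a stress-inducible ER protein, stood at 20.41 and 14.99 TPM (17.7 ± 3.83), on 724 and 571 expected counts, and was 1.49-fold higher in replicate 1 (1.33 to 1.66). Sdf2l1, the product of which forms a complex with ER DnaJ proteins, stood at 15.65 and 10.32 TPM (13.0 ± 3.77; chr16:17130138-17132383, minus strand). On 442 and 313 expected counts it was 1.66-fold higher in replicate 1 (1.43 to 1.92), and it was the 1 gene of the 32 called at least 1.5-fold apart. With the counts of the second quantification Creld2 passed that limit too (log2 ratio -0.60). Annotated exons of Manf overlap those of Dcaf1 on the opposite strand and of Rbm15b on its own, and the posterior SD of its count was 0 in both libraries. Whether reads of the overlaps belong to Manf was not tested.

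Across the 29 genes that averaged 100 counts or more, the differences between the animals were small and mostly of the same direction. Called means at least 1.5-fold apart with the interval excluding equality: 0 of the 29 were higher in replicate 2, where 6.19% of the 12853 nuclear genes compared were, and 1 was lower, where 3.9% were. At 2-fold the counts were 0 and 0, beside 2.39% and 1.15%. The interval lay above equality for 5 genes (Asns, Ddit3, Edem1, Derl1 and Atf6) and below it for 19, where 28.4% of all compared genes lay above and 28.4% below. The median log2 ratio of CPM + 1 (CPM, counts scaled to library size; replicate 2 minus replicate 1) was -0.16, with a range from -0.67 (Sdf2l1) to 0.54 (Asns), beside 0.0006 over all compared genes. Under every scaling, both quantifications and both pseudocounts, 19 genes stayed below 0 and 7 above it, and Derl2, Edem2 and Eif2ak3 changed sign. The median size of the difference regardless of sign was 0.19 on that log2 scale, beside 0.16 for all compared genes. A median of 2349 counts stood behind each of the 29 genes and of 844.5 behind all compared genes, and more counts give a narrower interval.

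By role, the median log2 ratio was -0.02 for the sensors, -0.15 for the transcription factors, -0.16 for the PERK and ATF4 branch, -0.04 for ERAD, -0.18 for the isomerases and oxidases, -0.28 for the lectin chaperones and -0.45 for the other lumenal proteins. With scaling to the ERCC spike-ins, which moved the median of all genes by 0.08, the medians of the sensors and of ERAD turned positive (0.06 and 0.04) and those of the other roles stayed below 0. Proteins that fold others carried most of the lower values: of the 12 genes of those last 3 roles, 11 had an interval below equality and 0 had one above it, and with ERCC scaling the counts were 9 and 0. Of the sensors, Atf6b differed most, by 1.18-fold. Of the 10 compared genes of the PERK and ATF4 branch and of ERAD, 3 had an interval above equality and 5 below it. Of the 6 compared genes with an ERSE, 5 had an interval below equality and 0 above, with a median log2 ratio of -0.19. Over all compared genes 28.4% lay below and 28.4% above. All of the 6 except Syvn1 are among the 12 genes already counted, so this is largely the same observation. Of the 2 compared genes with a C/EBP-ATF site, Asns was higher and Herpud1 lower in replicate 2. Each direction rests on 1 animal against 1.

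**Figure D3:**
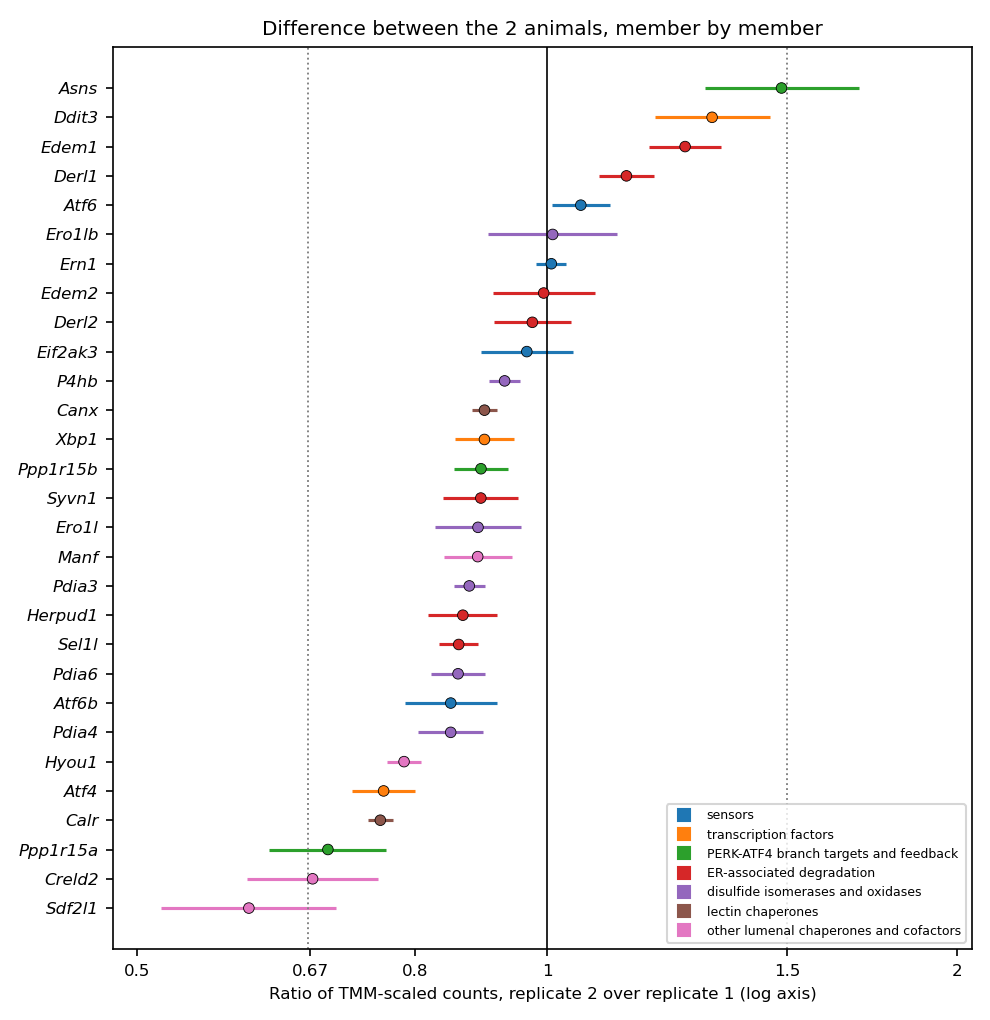
Ratio of scaled counts, replicate 2 over replicate 1 (log axis), for the 29 genes compared, ordered by ratio and coloured by role; bars are 95% intervals of counting error and dotted lines mark 1.5-fold in either direction. Sdf2l1 lies beyond the lower line and Asns just inside the upper one, and 19 bars lie wholly below 1.

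The transcripts behind these levels were mainly protein-coding. The 32 genes have 144 annotated transcripts, 71 of them protein-coding, and Chac1, Sdf2l1 and Creld2 have 1 each. In both libraries 31 of the 32 had the same leading transcript, and Derl3 was the exception. No leading transcript was noncoding in this quantification. In the second one, the retained-intron transcript Derl3-208 led Derl3 in replicate 1, with 41.8% of its TPM. The median share of protein-coding transcripts in a gene's TPM was 87.6% in replicate 1 and 89.0% in replicate 2. In 5 genes it was under 80% in both libraries: Sel1l (55.9% and 57.4%), Manf (60.4% and 61.4%), P4hb (68.7% and 67.1%), Ero1l (70.1% and 76.3%) and the scarcely counted Derl3 (37.8% and 76.5%). The other transcripts of such genes are retained introns and other forms not annotated as protein-coding.

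The second quantification deposited for the same reads, in kallisto's format, gave nearly the same differences between the animals and in places other levels and other transcripts. Its counts were 0.923 to 1.48 times those of the RSEM-format tables over the 29 genes compared, with the lowest ratio for Manf and the highest for Ero1lb. The TPM of Manf were 81.4 and 77.0 there, against 119.20 and 113.70, and those of Sel1l 46.3 and 45.1, against 66.43 and 60.44. The log2 ratio between the animals differed between the quantifiers by at most 0.0538 among the 29 genes, with a median of 0.0098. Leading transcripts were the same in both quantifications and both libraries for 28 of the 32, the exceptions being Asns, Derl2, Derl3 and Hyou1. Hyou1-201 led with 50.41% and 56.50% of Hyou1 in the RSEM-format table and took 1.68% and 0.533% in the kallisto-format table, where Hyou1-206 led with 80.9% and 82.0%. The coding share of Manf was 92.1% and 95.4% there, and that of Calr, 96.1% and 94.6% in the RSEM-format table, was 64.6% and 69.0%. Differences between transcripts of such genes were therefore not used.

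**Figure D4:**
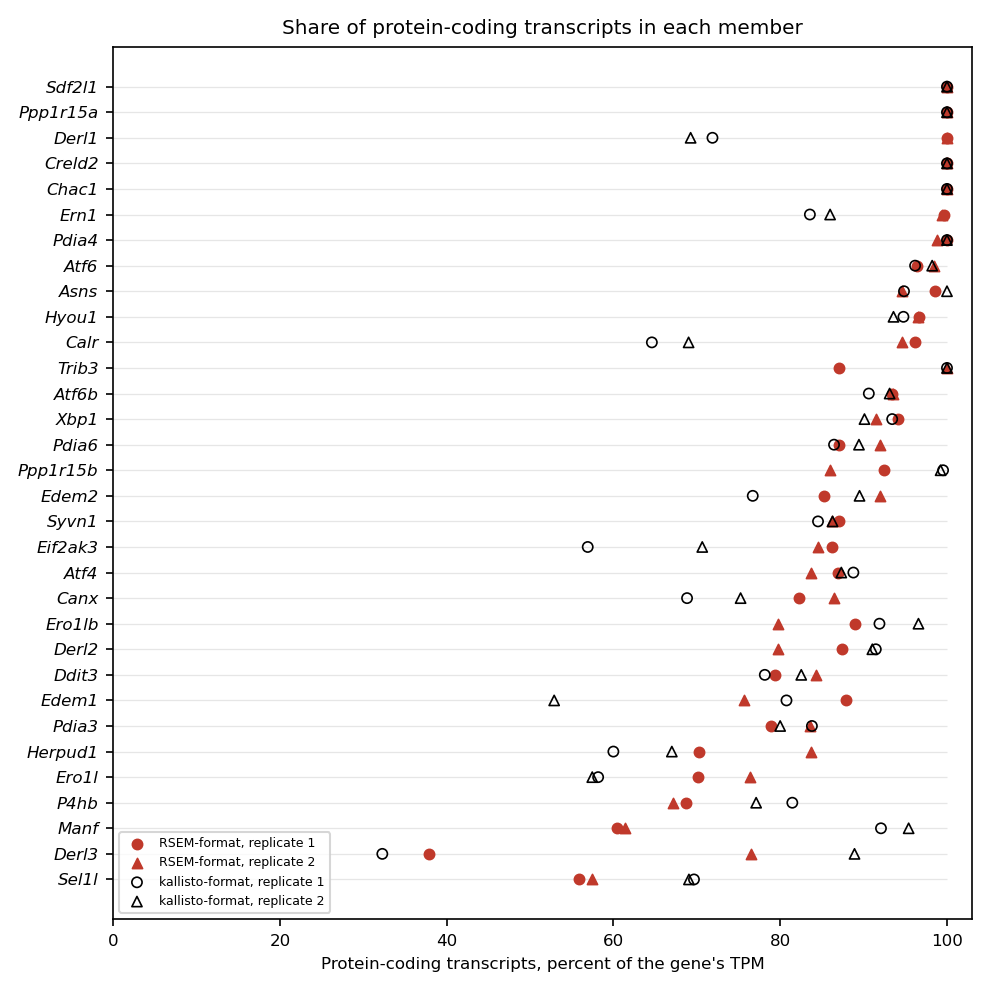
Share of each gene's TPM taken by protein-coding transcripts (percent), by replicate (circles, replicate 1; triangles, replicate 2) and by quantification (filled, RSEM format; open, kallisto format). Most filled points lie above 80%, and the filled and open points of Manf, Calr, Canx and Derl1 lie far apart.

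The wider pathway was described with 106 further genes in 7 lists, of which 100 reached 1 TPM in both libraries and 99 were deep enough to compare. At least 1.5-fold higher in replicate 2 were 3 (Phgdh, Eif4ebp1 and Nupr1, all in the ATF4-linked list) and lower was 1 (Creb3l1). Of all 12853 nuclear genes compared, 6.19% were higher and 3.9% lower by that limit. Intervals lay above equality for 20 of the 99 and below for 48, where 28.4% of all compared genes lay above and 28.4% below. The counts became 27 and 36 when scaled by total counts and 31 and 33 when scaled by ERCC spike-ins, settings for which the shares over all genes are not given. The median log2 ratio of the 99 was -0.08 and turned to 0.0038 with ERCC scaling, so the direction of medians this small depends on the scaling. The median of all compared genes moved too, from 0.0006 to 0.05 with total counts and to 0.08 with ERCC scaling. That of the 99 stayed below it under each of these. Among other ER chaperones, all 16 were detected and none was called, with a median log2 ratio of -0.08. Of these genes 9 had a log2 ratio below 0 and 7 above it. Hsp90b1 (GRP94) stood at 269.79 and 219.53 TPM and was 1.29-fold higher in replicate 1 (1.26 to 1.31), and Hspa5 stood at 233.15 and 205.45 TPM and was 1.20-fold higher there (1.17 to 1.23). Hspa5 exceeded Hyou1, its exchange factor, 2.40-fold in replicate 1 and 2.78-fold in replicate 2. Ppib, the lumenal cyclophilin B gene, stood at 97.48 and 109.68 TPM.

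The general ER machinery was detected throughout. Other ERAD genes (16 of 16 detected, median log2 ratio -0.08) were led by Vcp, the ATPase that pulls substrates out of the membrane, at 109.13 and 107.69 TPM, and also held Aup1 at 76.96 and 70.48 TPM. The translocon and signal peptidase list (16 of 16, -0.08) was led by Sec61b at 94.51 and 89.73 TPM, Spcs1 at 88.51 and 92.32 TPM and Sec61a1 at 84.10 and 83.23 TPM. In the N-glycan list (12 of 12, -0.12), all 12 genes had a log2 ratio below 0 and 10 an interval below equality, or 8 and 5 with ERCC scaling. Dad1, Rpn1 and Rpn2, subunits of the oligosaccharyltransferase, led it with 148.77 and 149.73, 139.36 and 134.29, and 121.51 and 122.57 TPM.

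Of the 25 other ATF4-linked genes, 22 were detected and 21 compared, with a median log2 ratio of -0.12. Phgdh, the first enzyme of serine synthesis, stood at 2.38 and 10.70 TPM and was 4.02-fold higher in replicate 2 (3.29 to 4.94). Eif4ebp1, which encodes a translation repressor, stood at 19.25 and 40.25 TPM (1.86-fold, 1.68 to 2.06) and the stress gene Nupr1 at 3.64 and 6.50 TPM (1.64-fold, 1.22 to 2.23). The highest of the list went the other way: Slc3a2, an amino acid transporter subunit, stood at 106.92 and 78.07 TPM and was 1.48-fold higher in replicate 1. Sars and Nars, tRNA synthetase genes, stood at 65.51 and 69.80 TPM and at 58.63 and 56.77 TPM. Gdf15, Slc7a11 and Fgf21 were under 1 TPM in at least 1 library.

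The eIF2 list (10 of 10, median log2 ratio -0.01, none called) was led by Eif2s2 at 36.04 and 33.39 TPM, Eif2s1, which encodes the subunit that PERK phosphorylates, at 30.21 and 31.65 TPM, and Eif2b2 at 25.63 and 34.03 TPM. Of other membrane-bound factors and proteases, 8 of 11 were detected, with a median log2 ratio of -0.07. Nfe2l1, an ER-anchored transcription factor gene, led with 168.70 and 180.65 TPM, followed by Tmbim6 with 163.15 and 180.96 TPM and Creb3 with 59.55 and 52.34 TPM. Creb3l1 stood at 8.81 and 5.19 TPM and was 1.85-fold higher in replicate 1 (1.63 to 2.11). Ern2, the gut-type paralog of Ern1, and Creb3l3 and Creb3l4 did not reach 1 TPM in both libraries.

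Genes outside the ER and cell type markers also differed between the animals. All 12 genes of the cytosolic and mitochondrial heat shock list had lower values in replicate 2, 10 by at least 1.5-fold and 3 by at least 2-fold, with a median log2 ratio of -0.80. Hspa8 stood at 1099.27 and 580.05 TPM, and Hsph1, the cytosolic counterpart of Hyou1, stood at 130.74 and 38.76 TPM and was 3.29-fold higher in replicate 1. Of the ER chaperones, Hsp90b1 was lower in replicate 2 by 1.29-fold and Hspa5 by 1.20-fold, and 7 of the 16 genes in the list of other ER chaperones had a log2 ratio above 0. The log2 ratios of the heat shock list ran from -1.72 to -0.29, a range that also holds those of Sdf2l1 (-0.67) and Creld2 (-0.55). Cortex markers and chromaffin markers each had a median log2 ratio of -0.41. In the other direction, 11 of 11 adipocyte markers were at least 2-fold higher in replicate 2 (median 3.03), and medians were 0.55 for macrophages, 0.49 for fibroblasts and capsule and 0.62 for erythroid cells. The part of these differences in those of the 32 genes was not tested, and in whole glands fewer cells of a type and less RNA per cell cannot be told apart.

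Plasma cells and pancreatic acinar cells are known for a high activity of the unfolded protein response, and their markers were measured as well. Summed plasma cell markers stood at 49.42 and 92.64 TPM, with 5 of 8 detected in both libraries and a median log2 ratio of 0.25 over the 4 compared. Most of the sum came from the immunoglobulin genes Ighm, at 19.96 and 57.99 TPM and 2.65-fold higher in replicate 2 (2.45 to 2.87), and Igkc, at 20.90 and 24.84 TPM. Jchain, Sdc1 and Prdm1 lay between 1.55 and 4.33 TPM, and Mzb1 (0.73 and 0.84 TPM), Tnfrsf17 (0.05 and 0.33 TPM) and Irf4 (0.11 and 0.33 TPM) were under 1 TPM. Of 8 pancreatic acinar markers, 5 were listed at 0 in both libraries, and the summed level of 42.12 and 45.33 TPM came mainly from Cela1, at 38.38 and 41.52 TPM. Endothelial markers had a median log2 ratio of -0.12.

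**Figure D5:**
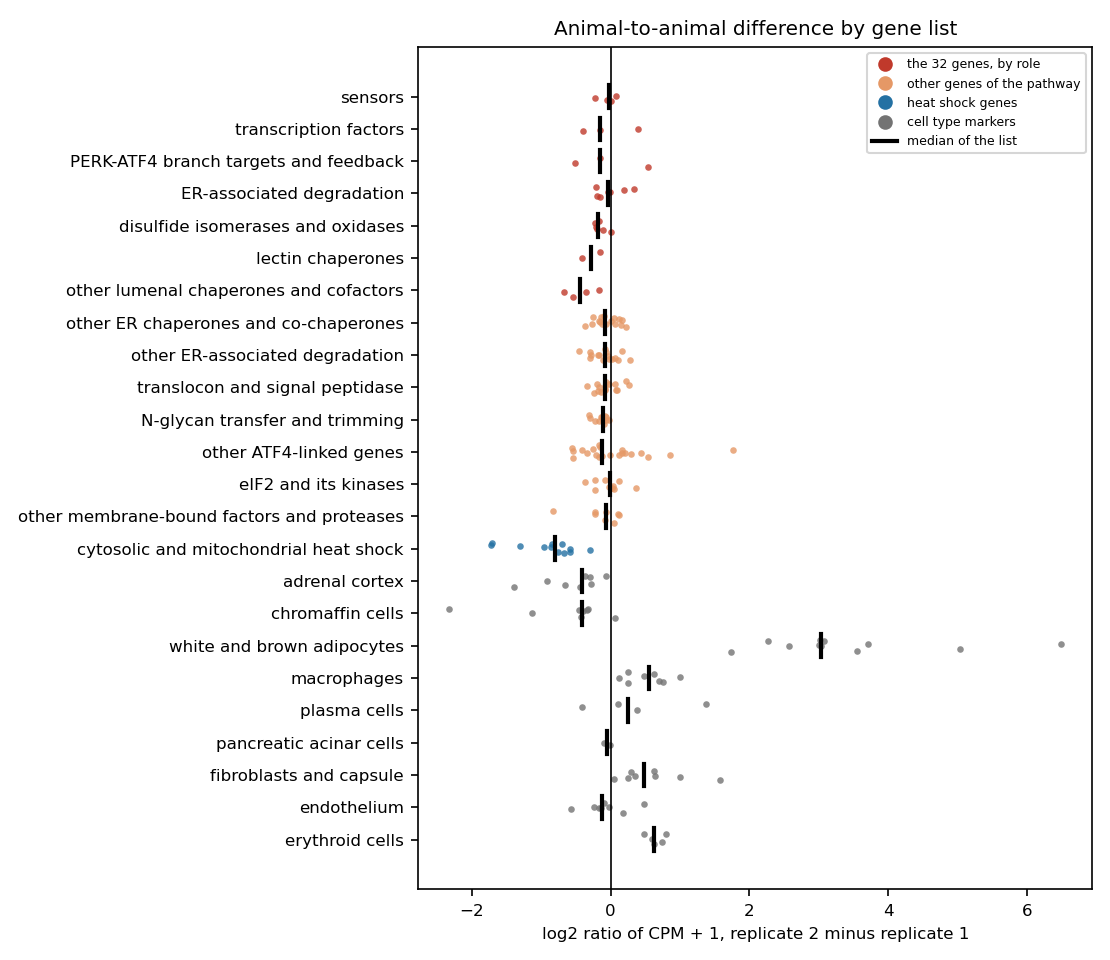
Log2 ratio of CPM + 1, replicate 2 minus replicate 1, for each gene (points) of each list, with the list's median as a bar: the 32 genes by role (red), other pathway genes (orange), heat shock genes (blue) and cell type markers (grey). The heat shock median lies at -0.80 and the adipocyte median at 3.03, and the medians of the 32 genes by role lie between -0.45 and -0.02, of which those of the sensors and of ERAD turn positive with ERCC scaling.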

How the data were processed

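Each library was made from 300 ng of total RNA with a directional kit and ERCC spike-ins, per the labels' protocols. The authors deposited gene tables of expected counts (estimated, not normalized) and TPM, with column names as RSEM writes them, per the file headers. Their deposited transcript tables add each transcript's percent share of the gene's level. Further transcript tables were deposited with TPM and estimated counts in kallisto's format, per the file headers. The text deposited with the tables names mm10 and GENCODE M21. The sources used here do not give the aligner, versions or strand setting. Reads of both parental genomes were quantified together.

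TPM were used as deposited, as mean ± SD over the 2 animals. Expected counts were rounded and scaled with TMM factors from R 4.3.3 with edgeR 4.0.16, and size factors of DESeq2 1.42.0 served as an alternative. ERCC entries and other rows that name no gene stayed out of library sizes. Folds are ratios of scaled counts with exact conditional binomial 95% intervals, which cover counting error only and not the spread between animals. Without molecular identifiers reads need not be independent, so the intervals may understate even the counting error. Log2 ratios are of CPM + 1 and understate differences of low genes. The limit that 0 counts allow is 3 counts, which is 0.100 CPM in replicate 1 and 0.0883 CPM in replicate 2. Calls needed a mean of 100 counts, a 1.5-fold or 2-fold difference and an interval excluding equality. No p-value was computed, since each side of the comparison was 1 animal. Alternatives were other scalings, the second quantification, other count minimums, detection limits and pseudocounts.

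The genes, lists, motifs and tests were chosen with earlier results of these data known. All 32 genes are accounted for. Given in full are those called at least 1.5-fold apart, the 8 with the highest mean TPM, those under 1 TPM in either library and those whose log2 ratio differs by over 0.5 between quantifications (0 genes). Of each of the 7 other pathway lists the 3 highest by TPM and up to 3 called genes are named, except 1 gene that is not reported here. Heat shock genes and cell markers are given by list, and those named there were chosen after their values were seen. Promoter sequences are from RefSeq (GRCm38.p6), the Xbp1 stretch from the reference genome. Protein sequences were not used here.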

Additional observations from a re-analysis of the deposited data

How the results depend on the processing

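No paired analysis was possible because the study has 1 group, and each side of the comparison is 1 animal, so no replicate could be left out of it either. Asns made the count of the 32 genes at least 1.5-fold higher in replicate 2 equal to 1, from 0, under scaling by total counts, by ERCC spike-ins and with the kallisto-format counts, which also raised the count of lower genes from 1 to 2 (Creld2). ERCC scaling moved the median log2 ratio of the 32 genes from -0.16 to -0.0794 and that of the other pathway genes from -0.0766 to 0.00381, with 31 rather than 20 intervals above equality among the latter. Other pathway genes at least 2-fold higher numbered 2 rather than 1 with a minimum of 10 counts or with none, the addition being Creb3l4, on 3 and 20 counts. The median level of the 32 genes, 27.66 TPM, was 23.8 TPM in the kallisto-format tables and 74.0 when TPM were rescaled to nuclear protein-coding genes; by construction the latter raises every gene. It was 27.08 and 28.24 TPM in either library alone, and the median coding share was 87.6% and 89.0%. Genes counted as detected numbered 29 to 32 over the alternatives, and 30 as reported. The causes of the other shifts were not tested. Of 203 values of single genes under alternatives, 199 kept their side of the 1.5-fold limit and 4 passed it (Asns 3 times, Creld2 in 1). The other count minimums and the other pseudocount leave each gene's ratio and interval unchanged. Agreement under those settings was therefore fixed in advance, and only the scalings and the second quantification could move a call. On the other side of 0 were 5 values, all of Derl2, Edem2 and Eif2ak3 and within the 1.5-fold limit. Depth limits Trib3, Chac1 and Derl3, which have too few counts for a call.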
